A study of Homo sapiens with 6 samples.

Results

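The adaptor protein GRB10, the receptors of insulin and the insulin-like growth factors (IGFs), their substrates and 3 IGF-binding proteins were followed in A375 melanoma cells with and without a RIPK4 knockout. The 10 genes, GRB10, GRB14, IGF1R, INSR, IGF2R, IRS1, IRS2, IGFBP2, IGFBP4 and IGFBP7, were taken by gene name from a table of 20851 genes, and all 10 passed the filter on low counts. They were chosen by the raw counts and fold changes of this same comparison, so their values are given as a description without a test. GRB10 RNA was 7.93-fold higher in the knockout subline than in the control, whereas IRS2, IGFBP4 and IGFBP2 RNA were 2.39-fold, 2.22-fold and 2.05-fold lower. The transcripts of both signalling receptors differed less, and IRS1 was slightly higher.

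In this pathway insulin and IGFs bind the receptor tyrosine kinases INSR and IGF1R, which phosphorylate the docking proteins IRS1 and IRS2 and so recruit phosphatidylinositol 3-kinase and, downstream of it, AKT and mTOR. GRB10 and GRB14 bind the activated receptors through their SH2 domains and dampen the signal, and GRB10 is also a substrate of mTOR complexes and an imprinted gene. Secreted IGF-binding proteins hold IGFs in the medium until proteases cut them, and IGF2R, the cation-independent mannose 6-phosphate receptor, takes IGF2 into lysosomes for breakdown.

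A375 is a human cutaneous melanoma cell line. The control subline, A375neg, was made with CRISPR/Cas9 and a lentiviral non-targeting guide RNA, and its libraries are labelled GFP. The A375RIPK4.KO subline was made with CRISPR/Cas9 and a lentiviral guide RNA directed at RIPK4, a receptor-interacting kinase, and its labels name no GFP. Whether the sublines differ in GFP was not tested, and such a difference could not be told apart from the knockout. Each subline gave 3 libraries of polyadenylated RNA from cells cultured in serum-containing medium, described as biological replicates, and p-values measure only the spread between these libraries. The knockout subline is 1 clone, so an effect of RIPK4 loss and a property of that clone cannot be told apart. The libraries held 21882863 to 26694140 counts, and a floor of 3 counts corresponded to 0.112 to 0.137 CPM (counts per 1000000 counts of a library). RIPK4 itself had 319, 368 and 404 counts in A375neg and 42, 51 and 61 in A375RIPK4.KO (log2 fold change -2.69, SE 0.17), so the residual transcript was low but present. Of 11 melanocytic markers, 7 were listed, with a summed level of 1085 to 1192 CPM in A375neg and 863 to 905 in A375RIPK4.KO. SOX10, CSPG4 and MCAM made up most of that sum, PMEL was at or under 22 counts in every library, and MLANA, TYR, DCT and PRAME were not analysed here. The summed level of the listed keratinocyte markers was 71.4 to 75.5 against 53.8 to 63.3 CPM and that of the fibroblast markers 7.53 to 9.25 against 6.19 to 6.49. Leukocyte markers summed to 1.57 to 2.01 against 0 to 0.731, with PTPRC at 0 counts in 4 of the 6 libraries and LYZ at 36 to 38 counts in A375neg against 0 to 13. All these sums were lower in A375RIPK4.KO, and their part in the results was not tested. Bulk RNA cannot separate fewer cells that express a gene from less RNA per cell.

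Across the genome, 14443 genes were tested and 1306 of them (9.04%) met the call limits used throughout, an adjusted p under 0.05 in the quasi-likelihood test of edgeR (Benjamini-Hochberg over all genes) together with a fold change of at least 1.5. Of the genes tested, 4.39% were called higher in A375RIPK4.KO and 4.65% lower. As a description and not as a test, 4 of the 10 genes lay past these limits, GRB10 as higher and IRS2, IGFBP2 and IGFBP4 as lower. Their median log2 fold change was -0.40. Groups did not overlap for 7 of the 10 genes, beside 36.5% of all genes tested. Nothing is read from these shares because of how the genes were chosen.

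GRB10 stood at 251, 268 and 269 counts in A375neg and at 1766, 1956 and 1969 in A375RIPK4.KO. Every knockout library was far above every control library, and the libraries within each group lay close together. After normalization for library size the means were 251 ± 4.04 and 1989 ± 56.0 counts (SD, n = 3 each), a log2 fold change of 2.99 (SE 0.07, 95% interval 2.83 to 3.14). Leaving out any 1 library kept it between 2.97 and 3.01. Of 12268 protein-coding genes tested, 66 had a larger increase.

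**Figure D1:**
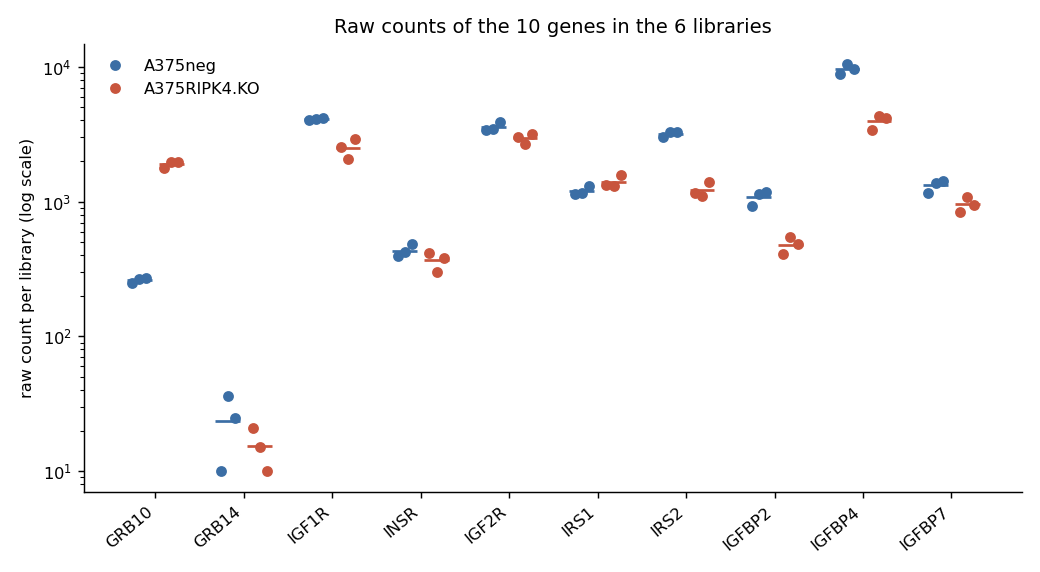
Raw counts per library, on a log axis, of the 10 genes in the 3 A375neg libraries (blue) and the 3 A375RIPK4.KO libraries (red), with a line at each group's mean. GRB10 rises from 251 to 269 counts to 1766 to 1969, IRS2, IGFBP2 and IGFBP4 fall with no overlap, and GRB14 scatters between 10 and 36 counts in both groups.

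GRB14, the closest relative of GRB10 in the set, was scarce in both sublines. It had 10, 36 and 25 counts in A375neg and 21, 15 and 10 in A375RIPK4.KO, so the groups overlapped. The log2 fold change was -0.46 (SE 0.49, 95% interval -1.57 to 0.64), an interval that holds 0. GRB7, the third member of the adaptor family, had 14, 6 and 8 counts against 3, 4 and 9 and did not pass the filter on low counts. Per exon length, GRB10 stood at 25.4, 39.4 and 59.5 times the level of GRB14 in the knockout libraries and at 7.58, 2.25 and 3.25 times in the control libraries. The first of the control values and the last of the knockout values each rest on a library with 10 GRB14 counts.

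GRB10 lies on the minus strand of chromosome 7 (50590068 to 50793453, RefSeq, GRCh38.p14) and has 5 annotated start windows there, IRS2 lies on the minus strand of chromosome 13 (109752695 to 109786583) and IGFBP4 on the plus strand of chromosome 17 (40443450 to 40457725). The start windows below, 250 bases before to 50 bases after an annotated transcript start in RefSeq, are shown for the gene that rose most and for the pair that had the largest decreases among the 10. Capitals mark the GC box GGGCGG and, in IGFBP4, the TATA box TATAAA, searched on both strands with overlapping matches counted. The windows are chr7:50793404-50793703 (minus strand), chr13:109786534-109786833 (minus strand) and chr17:40443200-40443499 (plus strand).
GRB10: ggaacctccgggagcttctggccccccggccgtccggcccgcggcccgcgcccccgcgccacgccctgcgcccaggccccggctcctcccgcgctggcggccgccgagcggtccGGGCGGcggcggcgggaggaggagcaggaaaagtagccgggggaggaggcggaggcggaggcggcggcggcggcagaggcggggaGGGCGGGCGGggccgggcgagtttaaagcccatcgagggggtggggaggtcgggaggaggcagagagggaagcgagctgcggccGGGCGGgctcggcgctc
IRS2: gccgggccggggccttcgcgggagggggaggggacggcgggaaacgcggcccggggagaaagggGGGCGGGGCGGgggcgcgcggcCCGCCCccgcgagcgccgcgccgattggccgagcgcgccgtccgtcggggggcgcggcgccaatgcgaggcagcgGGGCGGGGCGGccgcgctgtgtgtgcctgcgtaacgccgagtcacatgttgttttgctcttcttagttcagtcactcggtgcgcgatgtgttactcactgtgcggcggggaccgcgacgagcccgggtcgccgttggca
IGFBP4: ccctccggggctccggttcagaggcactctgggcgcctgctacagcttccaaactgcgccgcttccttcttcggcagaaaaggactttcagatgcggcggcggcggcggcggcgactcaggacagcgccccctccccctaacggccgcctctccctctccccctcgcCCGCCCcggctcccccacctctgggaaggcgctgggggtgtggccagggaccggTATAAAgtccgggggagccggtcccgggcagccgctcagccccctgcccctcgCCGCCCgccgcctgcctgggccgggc
The GRB10 window shown, the most upstream of its 5, holds 4 GC boxes and is 81.0% G and C. The IRS2 window holds 5 and is 75.7%, and the IGFBP4 window holds 2 with 1 TATA box and is 74.0%. The median over all windows in the reference was 58.7%. Further downstream in GRB10, start 2 has 3 GC boxes and starts 3, 4 and 5 have 0. The window of start 5 has 2 TATA boxes and is 33.7% G and C. Which GRB10 start was used in these cells was not tested. Start windows were found for 9 of the 10 genes, 16 windows in all, and each of these 9 genes had a GC box in at least 1 of them. Counted by window, 11 of the 16 had a GC box, beside 45.0% of 35116 windows in the reference. A TATA box was present in 2 of the 16 windows (11.5% of all windows) and the E-box CACGTG in 2 (7.26%). The FOXO core TGTTTAC was in none of the 16 windows and in 3.42% of all windows. Several genes have more than 1 window, so the 16 windows do not stand for separate genes, and the matches describe letters only. IGFBP7 had no window.

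IGF1R, the main receptor of the IGFs, had 4018, 4083 and 4205 counts in A375neg and 2548, 2054 and 2932 in A375RIPK4.KO. All 3 knockout libraries were below all 3 controls, with the second knockout library the lowest. The log2 fold change was -0.57 (SE 0.11, 95% interval -0.82 to -0.33), or 1.49-fold lower, so IGF1R missed the limit on the fold change by a small margin. It met both limits when A375neg library 2, A375RIPK4.KO library 1 or A375RIPK4.KO library 3 was left out, and without A375RIPK4.KO library 2 the log2 fold change was -0.44. That library had fewer counts on long genes, with a slope of -0.15 in log2 counts for each unit of log10 exon length against -0.02 to 0.06 in the other 5 libraries. IGF1R has 13.9 kb of exon, and with this trend removed its log2 fold change was -0.54.

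INSR, the insulin receptor, had 393, 425 and 481 counts in A375neg and 415, 303 and 384 in A375RIPK4.KO. The groups overlapped and the log2 fold change was -0.10 (SE 0.14, 95% interval -0.41 to 0.22). Its sign depended on 1 library, since without A375RIPK4.KO library 2 the value was 0.03. IGF2R also overlapped between the groups, with 3411, 3437 and 3874 counts against 3006, 2692 and 3160 and a log2 fold change of -0.14 (SE 0.08, 95% interval -0.32 to 0.04). Per exon length IGF1R stood at 7.14 ± 0.558 times INSR in A375neg and at 5.14 ± 0.563 times in A375RIPK4.KO (SD, n = 3 each), with no overlap. Both sublines therefore held more IGF1R than INSR transcript.

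IRS2 had 3031, 3264 and 3293 counts in A375neg and 1157, 1106 and 1400 in A375RIPK4.KO. The groups were far apart, and the normalized means were 3053 ± 60.4 and 1279.5 ± 133 (SD, n = 3 each), a log2 fold change of -1.25 (SE 0.08, 95% interval -1.43 to -1.07). The study also placed IRS2 in a gene list of its own drawn from these libraries, so that choice is not independent evidence. IRS1, the other docking protein, had 1132, 1149 and 1307 counts against 1332, 1295 and 1563. In normalized counts the groups did not overlap, at 1143 ± 90.7 and 1464 ± 117, and the log2 fold change of 0.36 (SE 0.08) was under the limit on the fold change.

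The balance of the substrates shifted with these differences. The ratio of IRS2 to IRS1 per exon length was 3.27, 3.47 and 3.08 in the A375neg libraries and 1.06, 1.04 and 1.10 in the A375RIPK4.KO libraries. IRS2 was thus the more abundant substrate transcript in the control, and the pair stood at nearly equal levels in the knockout subline. Their summed level was 20.0 ± 0.670 against 12.4 ± 1.14 CPM per kilobase (SD, n = 3 each). IRS4, a further member of this family, had 2, 5 and 0 counts against 0, 0 and 0 and did not pass the filter.

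**Figure D2:**
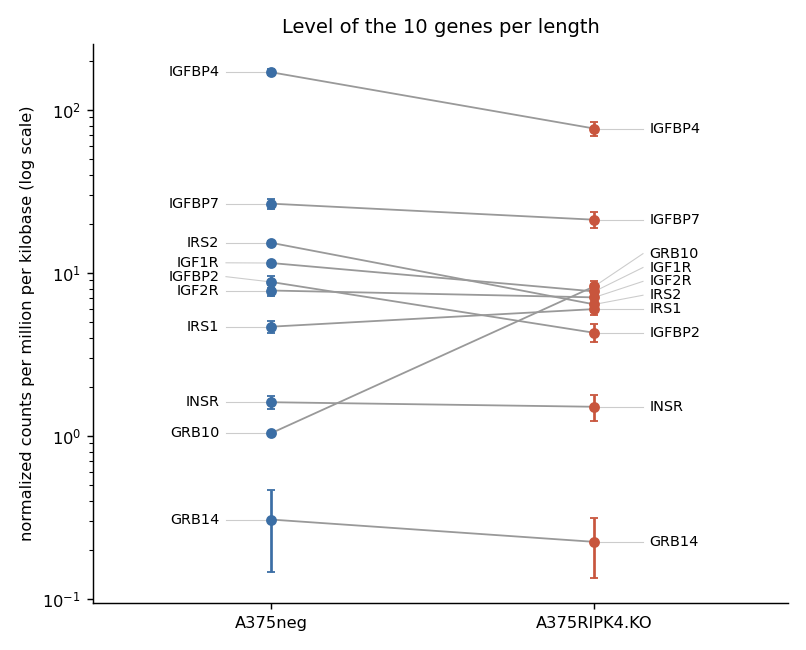
Mean level of the 10 genes in normalized CPM per kilobase of exon (log axis) in A375neg and A375RIPK4.KO, with SD bars over 3 libraries each, and lines joining each gene. GRB10 moves from the ninth to the third place, at 1.04 and 8.28, while IRS2 falls from 15.3 to 6.41.

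Per exon length, IGFBP4 was the most abundant of the 10 transcripts in both sublines, at 170.2 ± 7.02 CPM per kilobase in A375neg and 76.8 ± 7.68 in A375RIPK4.KO (SD, n = 3 each). IGFBP7 came second, with 26.6 and 21.2. In A375neg the order continued with IRS2 (15.3), IGF1R (11.5), IGFBP2 (8.80), IGF2R (7.80), IRS1 (4.68), INSR (1.61), GRB10 (1.04) and GRB14 (0.307), and only IGFBP2 and IGF2R had libraries that overlapped as neighbours. In A375RIPK4.KO it continued with GRB10 (8.28), IGF1R (7.70), IGF2R (7.08), IRS2 (6.41), IRS1 (6.0), IGFBP2 (4.29), INSR (1.51) and GRB14 (0.224). There each neighbouring pair from GRB10 to IRS1 overlapped. Exon length here joins the exons of all annotated transcripts, so a gene that uses only part of them stands lower in this order. Which transcripts were used was not tested. The ratio of GRB10 to IGF1R, the receptor it binds, was 0.0911 ± 0.00226 in the control and 1.10 ± 0.222 in the knockout subline.

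IGFBP4, which binds IGFs and is cut by the protease PAPPA, had 8884, 10435 and 9572 counts in A375neg and 3373, 4306 and 4196 in A375RIPK4.KO. The log2 fold change was -1.15 (SE 0.08, 95% interval -1.33 to -0.96). IGFBP2, a binding protein with an integrin-binding motif, had 932, 1136 and 1170 counts against 406, 546 and 485, a log2 fold change of -1.04 (SE 0.11, 95% interval -1.28 to -0.79). For both genes every knockout library was below every control library.

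IGFBP7, a low-affinity IGF binder of the matrix, differed less. It had 1167, 1364 and 1424 counts against 843, 1088 and 939, with no overlap, and a log2 fold change of -0.33 (SE 0.10). At its lower end IGFBP7 shares 386 bases with POLR2B, a subunit of RNA polymerase II, whose log2 fold change was -0.56 (SE 0.06). Whether the counting used strand is not given in the sources used here, so reads on the shared bases cannot be assigned.

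The remaining binding proteins and their proteases were described from a list of 12 genes, of which 9 were tested, 2 did not pass the filter and IGFALS was not analysed here. Of the 9, 5 were lower and 2 were higher in A375RIPK4.KO, a share of 77.8% beside the 9.04% of all genes. IGFBP5 showed the largest difference, with 360, 450 and 491 counts in A375neg and 21, 26 and 25 in A375RIPK4.KO (log2 fold change -4.03, SE 0.17, adjusted p = 1.18e-06 by edgeR). PAPPA, which releases IGFs by cutting IGFBP4, fell from 220, 266 and 233 counts to 37, 42 and 35 (log2 fold change -2.51, SE 0.17). Both IGFBP4 and the protease that cuts it were therefore lower in the same libraries. IGFBP6, which prefers IGF2, fell by 1.55 on the log2 scale (SE 0.11). STC1 and STC2, inhibitors of PAPPA, also met the limits, at -0.88 (SE 0.15) and -0.59 (SE 0.16), although STC2 met them in 1 of the 6 fits that left out a library. Both were named after their values were seen.

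In the opposite direction, HTRA1, a secreted serine protease that cuts several binding proteins, rose from 148, 159 and 148 counts to 309, 320 and 335 (log2 fold change 1.22, SE 0.12). IGFBP1 also rose, from 10, 14 and 13 counts to 29, 45 and 41 (log2 fold change 1.76, SE 0.31), and remained scarce. IGFBP3, the main serum carrier of IGFs, had 6544, 7391 and 7381 counts against 4282, 4384 and 4912. Its log2 fold change of -0.52 (SE 0.06, adjusted p = 0.000464 by edgeR) was under the limit on the fold change. IGFBPL1 was at 0 counts in 5 of the 6 libraries.

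**Figure D3:**
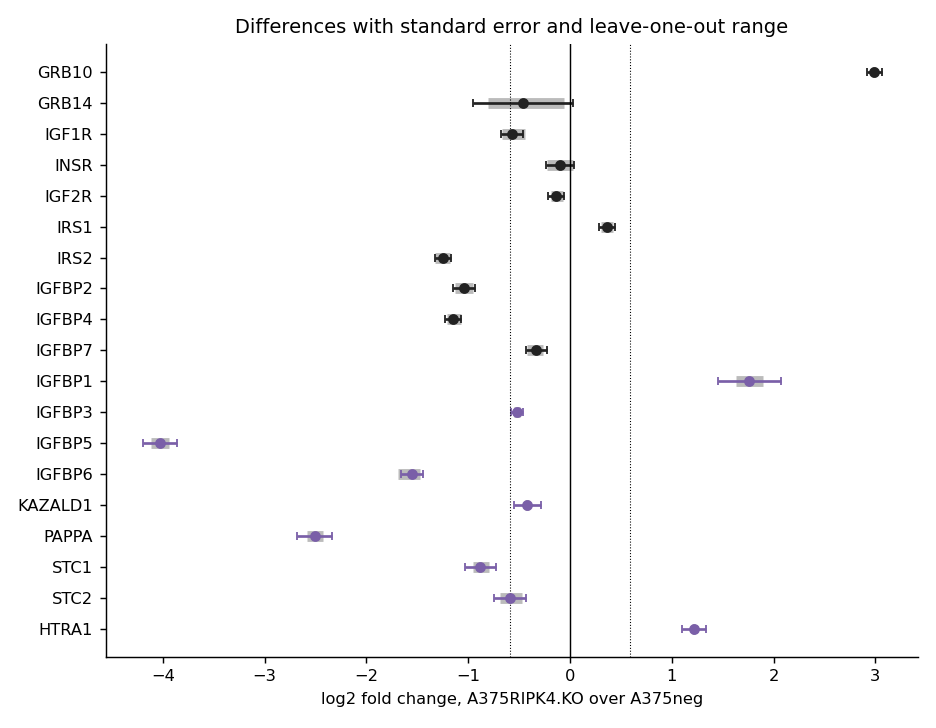
Log2 fold change of A375RIPK4.KO over A375neg for the 10 genes (black) and the other tested binding proteins and proteases (violet), with the standard error as bars and the range over the 6 fits that each left out 1 library in grey. Dotted lines mark a 1.5-fold difference. GRB10 stands at 2.99 and IGFBP5 at -4.03, and IGF1R lies beside the dotted line.

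Summed over IGFBP1 to IGFBP7, the level was 325, 347 and 339 CPM per kilobase in A375neg and 156, 182 and 169.6 in A375RIPK4.KO, or 2.00-fold lower. IGFBP4 made up 50.5 ± 0.855% of the sum in the control and 45.4 ± 1.33% in the knockout subline (SD, n = 3 each). The share of IGFBP6 was 20.3 ± 0.418% against 13.8 ± 1.47%. IGFBP3 took a larger share in the knockout subline, 25.1 ± 2.38% against 17.9 ± 0.459%, as did IGFBP7, 12.5 ± 0.661% against 7.87 ± 0.463%. For each of these 4 shares the groups did not overlap, and the share of IGFBP2, 2.61 ± 0.176% and 2.53 ± 0.128%, overlapped.

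**Figure D4:**
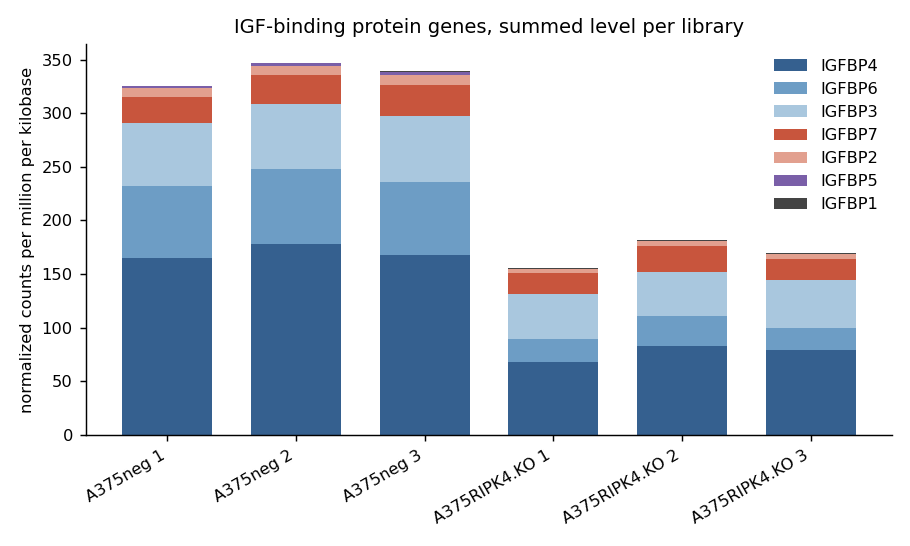
Level of the 7 IGF-binding protein genes in each library, stacked, in normalized CPM per kilobase of exon. The 3 A375neg bars reach 325 to 347 and the 3 A375RIPK4.KO bars 156 to 182, and IGFBP4 is the largest part of every bar.

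Partners of the receptors gave no call. Of 24 receptor-proximal partners, which include the adaptors SHC1, GRB2 and GAB1 and the ubiquitin ligase NEDD4 that acts with GRB10, 21 were tested and 0 met the call limits by edgeR, beside 9.04% of all genes. An adjusted p under 0.05 alone was reached by 3 of the 21, beside 16.6% of all genes, and these were GAB2 (-0.55, SE 0.07), SOS2 (-0.51, SE 0.13) and SH2B1 (0.28, SE 0.07), on the log2 scale. Without A375RIPK4.KO library 3, SOS2 met the limits. The groups did not overlap for 11 of the 21, beside 36.5% of all genes. The scarce adaptor DOK5 had the largest difference, with 5, 14 and 4 counts against 13, 17 and 13. Its log2 fold change was 1.03 (SE 0.52, 95% interval -0.15 to 2.22). These 4 genes were named after their values were seen. NEDD4 had a log2 fold change of 0.19 (SE 0.06) and GRB2 of 0.04 (SE 0.06). INSRR was not analysed here, nor were the ligands INS, IGF1 and IGF2.

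Among 26 genes of the PI3K-AKT-mTOR core, all tested, 0 met the limits by edgeR, beside 9.04% of all genes. An adjusted p under 0.05 alone was reached by 3 of the 26, beside 16.6% of all genes. The median log2 fold change of the 26 was 0.01. AKT1 (0.01, SE 0.07), AKT2 (0.09, SE 0.06) and MTOR (-0.09, SE 0.06) showed small differences. Of 16 negative regulators 13 were tested, and 1 met the limits, 7.69% beside 9.04% of all genes. It was the receptor phosphatase PTPRJ, which fell by 0.66 on the log2 scale (SE 0.10, adjusted p = 0.00228 by edgeR) and by 0.58, under the limit on the fold change, without A375RIPK4.KO library 2. PTPRF, another receptor phosphatase and named after its values were seen, lay in the opposite direction, with 8792, 9748 and 9674 counts against 11992, 12563 and 13642. Its log2 fold change of 0.57 (SE 0.06, adjusted p = 0.000185 by edgeR) was just under the limit on the fold change, and it met the limits in 3 of the 6 fits that left out a library. Without A375neg library 3 or A375RIPK4.KO library 1, and with the length trend removed, 2 of the 13 were called.

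FOXO factors, which AKT holds out of the nucleus, and genes known as their targets were the other list with several called members. Of 22 genes 17 were tested, 6 were lower and 1 was higher, 41.2% beside 9.04% of all genes. ERBB3, a receptor of the EGF receptor family, fell from 7235, 7401 and 7378 counts to 2595, 2259 and 2549 (log2 fold change -1.44, SE 0.08, adjusted p = 4.45e-06 by edgeR). FBXO32, a muscle ubiquitin ligase subunit, fell by 1.19 on the log2 scale (SE 0.16). PDK4, an inhibitor of pyruvate dehydrogenase, had 126, 109 and 147 counts against 26, 67 and 59 (log2 fold change -1.20, SE 0.31). Its call was lost without A375neg library 1, 2 or 3 or A375RIPK4.KO library 3, at adjusted p values of 0.051 to 0.102 by edgeR.

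CCNG2 (-1.04, SE 0.15), BCL6 (-0.82, SE 0.11) and TXNIP (-0.59, SE 0.12) were the other genes that fell, on the log2 scale, and were named after their values were seen. TXNIP met the limits in 4 of the 6 fits that left out a library. SESN3, a stress-induced inhibitor of mTOR complex 1, rose from 52, 40 and 45 counts to 108, 118 and 114 (log2 fold change 1.44, SE 0.20). FOXO1 overlapped between the groups at -0.21 (SE 0.20), and FOXO3 at -0.47 (SE 0.12) and FOXO4 at -0.46 (SE 0.13) were under the limit on the fold change. Genes of this list also respond to other factors, and the FOXO proteins were not measured.

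The mannose 6-phosphate sorting genes work with IGF2R in bringing enzymes to lysosomes. They gave 0 calls among 10 tested by edgeR, beside 9.04% of all genes, with log2 fold changes of -0.30 to 0.21. An adjusted p under 0.05 alone was reached by 1 of the 10, beside 16.6% of all genes. The 3 IGF2 mRNA-binding proteins, with values of -0.11 to 0.12, gave 0 calls and 0 adjusted p under 0.05 by edgeR, beside the same shares. Over all these lists 99 of 116 genes were tested, 3 were higher and 12 lower, 15.2% beside 9.04%.

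**Figure D5:**
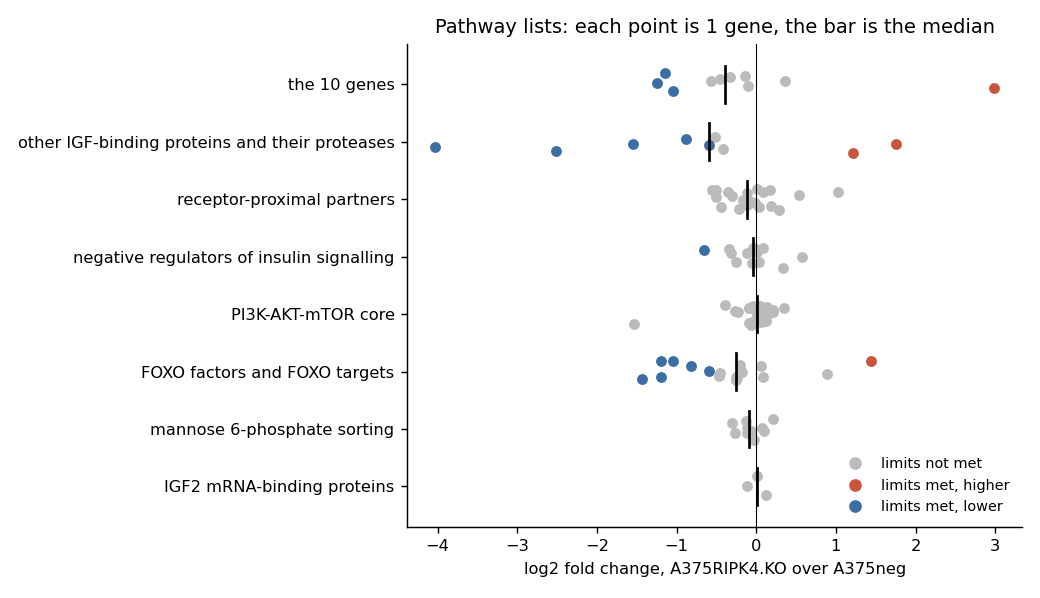
Log2 fold change of A375RIPK4.KO over A375neg for each tested gene of the pathway lists (1 point per gene, bar at the list's median, vertical jitter only for legibility). Coloured points met the call limits, red as higher and blue as lower, and lie in the binding protein, negative regulator and FOXO lists and among the 10 genes.

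The nearest protein-coding genes on both sides of the 10 genes were compared as well, since position played no part in choosing them. Of 20 neighbours 13 were tested, and 2 were lower, 15.4% beside 9.04%. IGFBP5, described above, lies 7.7 kb from IGFBP2 on chromosome 2. TNS4, a focal adhesion protein gene 18.1 kb from IGFBP4, had 17, 24 and 13 counts against 1, 3 and 3. The knockout libraries were at or under the floor of 3 counts, so no fold is given, and the call was lost without A375neg library 2. COBL, the tested neighbour of GRB10 at 222.8 kb, had 515, 560 and 564 counts against 311, 340 and 345 (log2 fold change -0.58, SE 0.08), the opposite direction to GRB10 and just under the limit on the fold change. COBL met the limits in 4 and POLR2B in 2 of the 6 fits that left out a library. Without A375RIPK4.KO library 3 both of them met the limits, which gave 4 of the 13. DDC, on the other side of GRB10, was not analysed here, and RHBDD1, 0.3 kb from IRS1, had a log2 fold change of 0.18 (SE 0.12).

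The 5 protein-coding genes whose profile over the 6 libraries lay closest to that of GRB10, by the Euclidean distance of centred log2 counts among 10732 genes, were SPP1 (0.225), CD163L1 (0.389), PGAP4 (0.509), FHL1 (0.620) and RGS4 (0.633). SPP1, the secreted matrix protein osteopontin, had 936, 944 and 976 counts in A375neg and 5377, 6759 and 6760 in A375RIPK4.KO (log2 fold change 2.86). FHL1, a LIM-domain protein, went from 169, 155 and 156 counts to 747, 866 and 872 (log2 fold change 2.5), and RGS4, a regulator of G protein signalling, from 65, 74 and 118 to 577, 610 and 521. Likeness over 6 libraries in 2 groups follows mainly from the size of the group difference, and the 5 genes are on chromosomes 4, 12, 9, X and 1.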

How the data were processed

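Polyadenylated RNA of 6 libraries was sequenced by an external provider with strand-specific, paired-end libraries. The authors deposited raw counts per gene as whole numbers, and these were used as counts without change. The submitters' processing notes name cutadapt, FastQC, HISAT2, HTSeq and DESeq2 and the build GRCh38.p13, while versions and the counting settings are not given in the sources used here. The same table holds normalized counts and the authors' own comparison (fold changes, test statistics, standard errors and p-values), which were not used.

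The groups were compared with edgeR 4.0.16 under R 4.3.3, using TMM scaling, the filterByExpr filter and the quasi-likelihood test with group as the only term. P-values were adjusted by Benjamini-Hochberg across the 14443 genes that passed the filter. To normalize, each raw count was divided by the effective library size from TMM over the average of the 6 sizes, and the SE comes from the fit. Levels per length use exon unions of GENCODE 29, known for 91.6% of the genes tested. Gene positions and start windows are from RefSeq (GRCh38.p14), whose genes overlapped the table's exons for 98.34% of genes compared. The fit was tested on simulated data. Alternatives were DESeq2 1.42.0, its size factors, other filters and fold limits, removal of a trend with exon length, summed gene copies, a replicate block and leaving out each library.

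The 10 genes and all lists were chosen with earlier results of these data known. Beside the 10 genes and RIPK4, the rule for named genes took every other IGFBP gene, GRB7, IRS4, INSRR and the ligands, up to 4 called genes per list with the largest change (mean count of 50 or more), the nearest protein-coding neighbours, and the 5 genes most like GRB10. The last were sought among protein-coding genes whose mean count was 50 or more. Genes outside this rule were chosen after their values were seen. Some results of the pathway lists are not reported here.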

Additional observations from a re-analysis of the deposited data

How the results depend on the processing

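The 10 genes gave 4 calls, and 7 with no limit on the fold change, 1 at an absolute log2 fold change above 1.5 and 4 to 5 when a library was left out. The other pathway genes gave 15 calls, and 27, 4 and 13 to 16 in the same settings, and all genes 1306, and 2403, 465 and 1059 to 1336. The neighbours gave 2 calls, 4 with no limit on the fold change, 1 where the mean count had to reach 50 and 2 to 4 when a library was left out. As a description, the log2 fold change over all fits was 2.97 to 3.02 for GRB10, -1.33 to -1.18 for IRS2, -1.13 to -0.95 for IGFBP2 and -1.21 to -1.07 for IGFBP4. INSR ranged from -0.23 to 0.03 when a library was left out, the positive value without A375RIPK4.KO library 2, and the cause was not tested. Of 334 alternative values over 21 of the named genes, 311 kept their direction and side of the limits, 14 fell below them, 8 rose past them and 1 changed sign. These 21 were the 10 genes, IGFBP1, IGFBP3 and the called genes that the rule took from the pathway lists. RIPK4, the neighbours other than IGFBP5, the genes most like GRB10 and genes named after their values were seen were not counted.

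Replicate numbers are shared by the groups, but deviations of same-numbered libraries correlated at only 0.08, 0.04 and -0.01, so the numbers were not taken to pair them. With the replicate block, 5 of the 10 genes, 15 other pathway genes and 1266 of all genes were called, IGF1R being the added one at a log2 fold change of -0.59. GRB14 had 10 to 36 counts per library, and whether depth or the spread between libraries limits it was not tested.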
